A study of Mus musculus with 4 samples.

Results

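The genes described here are the amino acid carriers of the Slc1, Slc3, Slc6, Slc7, Slc36, Slc38 and Slc43 families, measured in mouse mammary tumour cells with and without forced expression of the miR-23b/27b/24 cluster. Every gene name of these families on the array was taken, whatever its values, which gave 56 of the 27962 gene names. Of these 56 names, 43 were detected, meaning that the cells' signal at the gene's brightest probe was well above background on both arrays of at least 1 group, as were 20649 genes of the whole array. The 4TO7 line comes from a mammary tumour of a BALB/cfC3H mouse, and both groups had been made into stable lines with a pMSCV retroviral vector. The control group carried the empty pMSCV-puro vector and the other group carried pMSCV-miR-23b/27b/24. Each group had 2 transfection replicates and each replicate was read on 1 array. The labels do not say whether a stable line was a clone or a pool. The cells were kept in medium with 10% FBS and 1 mM glutamine and were passaged every 3 days. On every array the cells' RNA was labelled with Cy5 and a reference RNA mixed from 11 mouse cell lines with Cy3. A log2 ratio below is therefore the cells over the reference on 1 array, and a log2 fold change is the mean ratio of the miR-23b/27b/24 arrays minus that of the vector arrays.

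Mammalian cells cannot make all amino acids, and membrane carriers bring them in, exchange one for another or return them from the lysosome. Some carriers are driven by sodium, some by protons, and some are exchangers that need a second protein: the glycosylated heavy chain Slc3a2 takes several Slc7 light chains to the cell surface. In tumour cells, Slc1a5 and Slc38a2 carry glutamine, Slc7a5 carries leucine and other large neutral amino acids, and Slc7a11 carries cystine for glutathione. Several of these genes are known targets of Atf4, the transcription factor of the amino acid response.

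The miRNAs of the cluster that was overexpressed are the agents of the comparison, so the mature sequences that RefSeq holds for mouse (GRCm38.p6) are given here, with the seed (bases 2 to 8) in capitals. miR-27b-3p lies at chr13:63300760-63300780 and miR-24-3p at chr13:63301251-63301272, both on the plus strand. miR-23b-3p is the other member of the cluster. The seeds of miR-27b-3p and miR-24-3p differ, so these miRNAs belong to different seed families. No target sites were counted in the carrier genes.
mmu-miR-27b-3p: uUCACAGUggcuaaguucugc
mmu-miR-24-3p: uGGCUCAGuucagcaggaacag

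Of 41174 probes for genes, the share that rose clearly over background in Cy5 was 69.9% to 74.8% on the 4 arrays. Of 6 mammary epithelial markers chosen, 5 were found under their names in the files. All 5 were detected and 3 fell with the miRNA cluster: Krt7 by -4.49, Krt19 by -4.03 and Cdh1 by -2.95 in log2. Krt18 (-1.40) and Krt8 (0.29) did not pass the test. Epcam, found only by its RefSeq symbol, was at -3.61 and passed with genes named by those symbols (limma adjusted p = 0.00222). Of 4 detected mesenchymal markers, Sparc was higher (1.29), while Fn1 (0.74), Vim (0) and Col1a1 (-0.02) did not pass the test. Of 4 leukocyte markers, Cd68 was lower (-1.68), while Ptprc (0.02), Cd3e (0.01) and Cd79a (-0.19) did not pass. The leukocyte marker Ptprc read between -5.82 and -5.72 against the reference on all 4 arrays. The part of these marker changes in the values of the carriers was not tested. In bulk RNA, fewer cells of a type and less RNA per cell cannot be told apart.

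Across the 43 detected carrier names, 1 gene rose and none fell at an adjusted p under 0.05 (limma over 20647 genes, Benjamini-Hochberg), which is 2.33% of them, beside 9.52% of all genes tested (4.83% higher and 4.69% lower). The gene that rose was Slc6a2. By the brightest probe and the main processing, it was also the only member of at least 2-fold, with or without the test. The shares of all genes were 5.83% with the test and 8.2% by size alone. Other probes of Slc38a2, and Slc36a4 and Slc7a4 with other processing, went past 2-fold, as given below. At an unadjusted p under 0.05, 8 of the 43 passed, beside 5734 of the 20647 genes, which is also the share to set beside the family and list counts below. The log2 fold changes ran from -0.92 to 3.06 with a median of -0.07, beside -0.03 for all genes. Of the 43, 14 were above 0 and 29 below, beside 9465 and 11182 of all genes tested. The median size of the change was 0.17, beside 0.24 for all genes. For 34 of the 43 the change was within 0.5 of 0 in log2, as it was for 15317 of the 20647 genes. Without vector replicate 1 the count of carriers called was 4, and without vector replicate 2 it was also 4, with Slc6a2 called in both. The share of all genes called in these settings was 22.4% and 13.4%.

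For 24 of the 43 (55.8%), every array of a group lay on the same side of the other group's arrays, beside 59.8% of all genes. In 17 of the 43, the difference between the group means was larger than the gap between the replicates in both groups, beside 45.6% of all genes. The 95% interval of the log2 fold change lay within 1 of 0 for 79.1% of the carriers and 74.2% of all genes. Changes of that size were thus outside the interval for most carriers, and for the others, Slc7a5 and Slc3a2 among them, the interval reached past it. Many carriers were dim: 15 of the 43 had a mean background-subtracted Cy5 signal under 100 and 5 under 50. The range was 19.6 to 19300 and the median 143. An offset of 50 was added to all signals before the ratio was taken, so the ratios of dim spots lie closer to 0 than those of bright ones. Of the 28 members with a signal of at least 100, 1 passed the test (3.57%), and their median log2 fold change was -0.01.

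**Figure D1:**
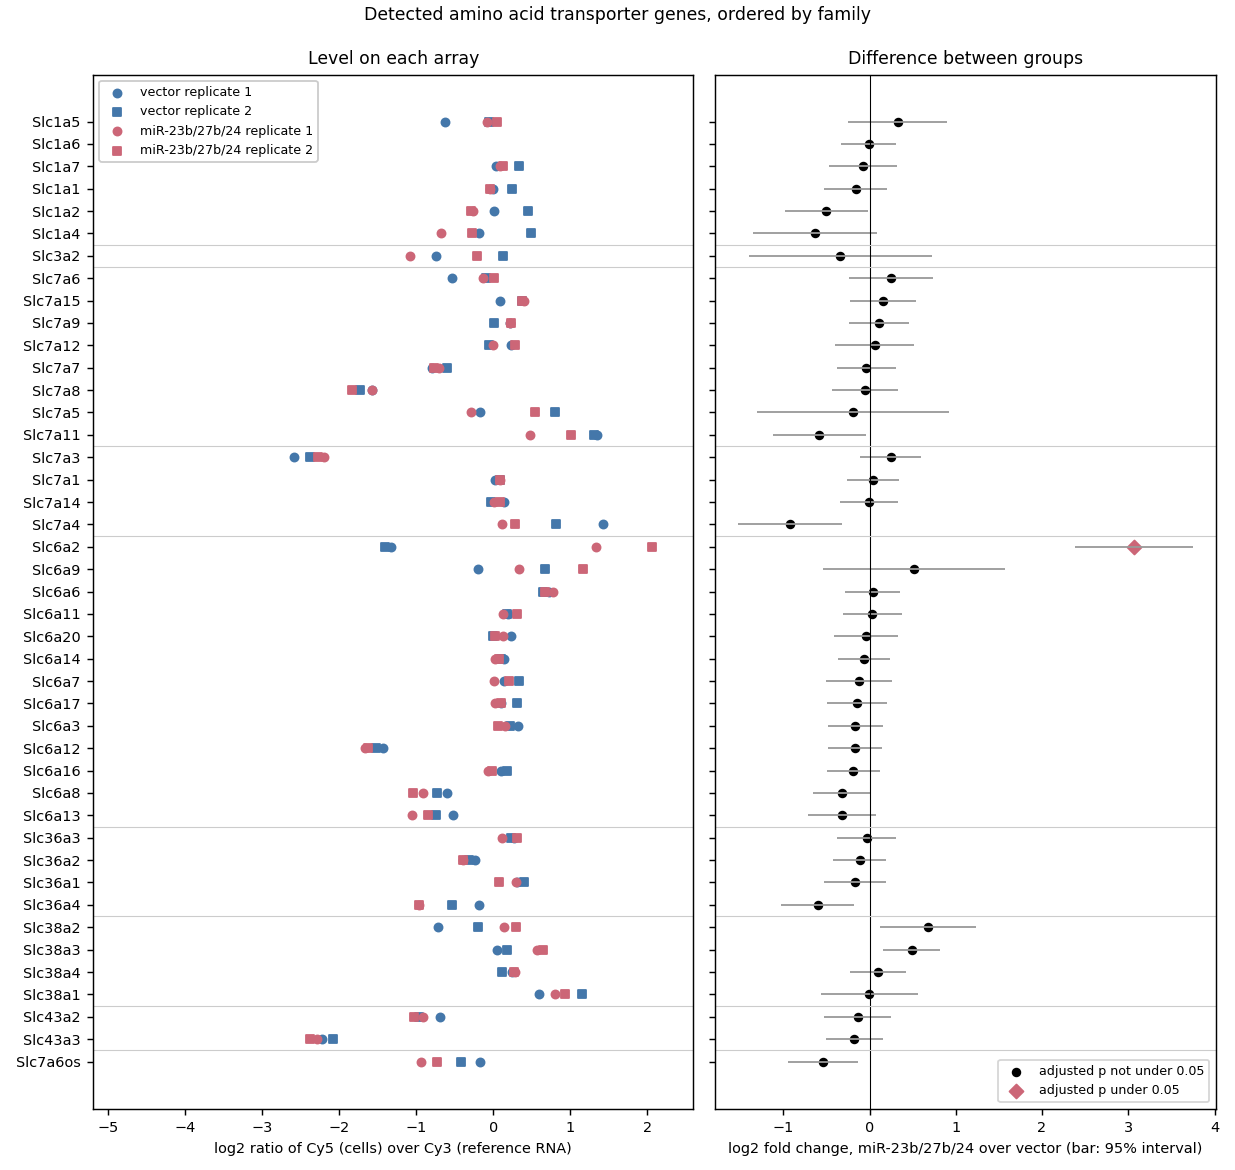
Log2 ratio of cells over reference on each of the 4 arrays (left) and log2 fold change of miR-23b/27b/24 over vector with its 95% interval (right) for the 43 detected carrier names, grouped by family. Slc6a2 is the point at 3.06 on the right, and all other points lie between -0.92 and 0.68.

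Slc6 carriers are driven by sodium and chloride and move neurotransmitters, creatine, taurine or amino acids. Of 19 names, 13 were detected, 1 rose (7.69%, beside 9.52% of all genes) and none fell. Slc6a2 is the noradrenaline transporter, which clears noradrenaline at nerve endings and in the adrenal medulla. Its probe lies at chr8:91594433-91594492 in mm7, the build of the array's design. The log2 ratio of Slc6a2 was -1.33 and -1.41 on the vector arrays and 1.33 and 2.06 on the miR-23b/27b/24 arrays. The vector cells were thus below the reference and the miR-23b/27b/24 cells above it on every array. Before scaling, the background-subtracted Cy5 signal of Slc6a2 was 48.4 and 46.7 in vector cells and 615.8 and 1143.8 in miR-23b/27b/24 cells. The Cy3 signal of the reference on the same spots was 278.6, 262.3, 264.8 and 275.7, so the reference stayed level while the cells' signal differed. The log2 fold change of Slc6a2 was 3.06 ± 0.26 (SE, n = 2 arrays a group; 95% interval 2.38 to 3.75; limma adjusted p = 0.00789), an 8.36-fold higher ratio. The fold change of Slc6a2 was 2.31 and the call was lost (limma adjusted p = 0.0666) when every local background was used as measured, and 4.14 with the scanner software's processed signals. Only 1 probe reported this gene, and it is dim in the vector cells.

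**Figure D2:**
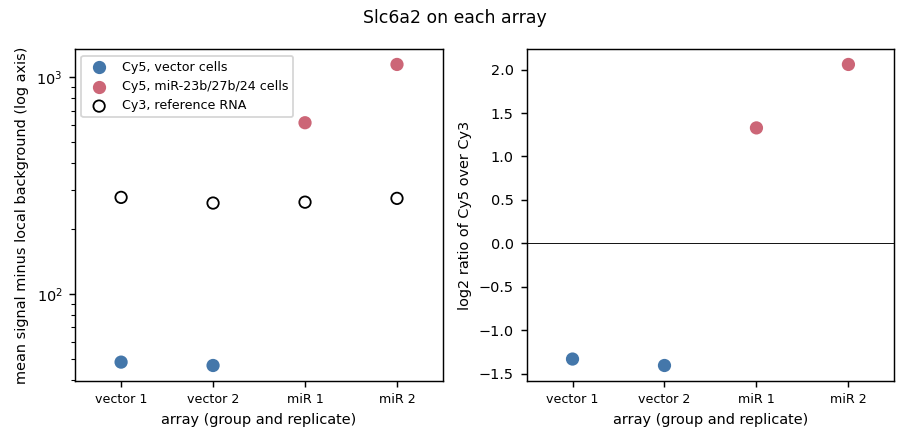
Slc6a2 on each array: background-subtracted signal of Cy5 (cells) and Cy3 (reference) on a log axis (left) and the log2 ratio of Cy5 over Cy3 (right). The Cy5 signal is 48.4 and 46.7 on the vector arrays and 615.8 and 1143.8 on the miR-23b/27b/24 arrays, while the Cy3 signal stays between 262.3 and 278.6.

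None of the other 12 detected Slc6 genes passed the test. Slc6a9, the glycine transporter GlyT1, read -0.20 and 0.67 on the vector arrays and 0.33 and 1.16 on the miR-23b/27b/24 arrays. The groups overlapped and the gaps between replicates were larger than the difference, which was 0.51 ± 0.41 (SE, n = 2; limma adjusted p = 0.480) and ran from 0.08 to 0.95 when single arrays were left out. Slc6a6, the taurine transporter, lay above the reference at 0.72, 0.65, 0.78 and 0.67 on the 4 arrays, with a difference of 0.04 ± 0.12 and a 95% interval of -0.28 to 0.36. Both the replicates and the groups lay close together for Slc6a6. Slc6a8, the creatine transporter, read -0.60 and -0.73 in vector cells and -0.92 and -1.04 in miR-23b/27b/24 cells (-0.32 ± 0.13; limma adjusted p = 0.201). The GABA carrier Slc6a13 had the same log2 fold change of -0.32 (limma adjusted p = 0.260), and its other detected probe gave 0.01. Slc6a12, the betaine and GABA transporter, was below the reference on all arrays, between -1.67 and -1.43, with a log2 fold change of -0.17. The dopamine transporter Slc6a3, the relative of Slc6a2 that carries dopamine, was dim, with ratios of 0.32, 0.22, 0.15 and 0.06 and a log2 fold change of -0.17 ± 0.12. The adjusted p-values of the 11 genes other than Slc6a2 and Slc6a9 lay between 0.201 and 0.909. Slc6a20 of the array is the gene that RefSeq calls Slc6a20b.

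The heavy chain Slc3a2, also known as CD98, and the light chain Slc7a5 form the LAT1 exchanger for large neutral amino acids. The log2 ratio of Slc7a5 was -0.17 and 0.81 on the vector arrays and -0.29 and 0.54 on the miR-23b/27b/24 arrays. Replicate 2 of each group was above the reference and replicate 1 of each group below it, and the groups overlapped. For Slc7a5 the log2 fold change was -0.20 ± 0.43 (SE, n = 2; 95% interval -1.31 to 0.92; limma adjusted p = 0.818). Its probe lies at chr8:120523247-120523306 (mm7).
The log2 ratio of Slc3a2 was -0.74 and 0.12 in vector cells and -1.08 and -0.21 in miR-23b/27b/24 cells. Its arrays followed the same order as those of Slc7a5 within each group. The log2 fold change of Slc3a2 was -0.34 ± 0.41 (SE, n = 2; 95% interval -1.40 to 0.73; limma adjusted p = 0.655), and its second, dimmer probe gave -0.04. Neither gene kept its direction when single arrays were left out. Without vector replicate 2 the log2 fold change of Slc7a5 was 0.29 and that of Slc3a2 was 0.09. Without miR-23b/27b/24 replicate 1 they were 0.22 and 0.09.

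Slc7a11, the light chain of the cystine-glutamate exchanger xCT, lay above the reference on all arrays. Its log2 ratio was 1.34 and 1.31 on the vector arrays and 0.47 and 1.01 on the miR-23b/27b/24 arrays. The vector arrays were close to each other and above both miR-23b/27b/24 arrays. For Slc7a11 the log2 fold change was -0.59 ± 0.21 (SE, n = 2; 95% interval -1.12 to -0.05), and it did not pass the test (limma adjusted p = 0.154). It was -0.13 with all local backgrounds as measured and -0.32 when replicate 1 of the miR-23b/27b/24 group was left out. All 3 detected probes of Slc7a11 gave a value below 0, from -0.59 to -0.38.

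Slc7a6, the light chain y+LAT2, had a log2 fold change of 0.25 ± 0.19 (limma adjusted p = 0.455). Slc7a7, the light chain y+LAT1, read between -0.80 and -0.60 on the 4 arrays with a log2 fold change of -0.04. Slc7a8, the light chain LAT2, was below the reference on all arrays, between -1.83 and -1.58, with a log2 fold change of -0.05. Of the 8 detected light chains, 4 were above 0 and 4 below, and none passed the test (limma; 1 at an unadjusted p under 0.05). The heavy chain Slc3a1 was well above background on no array, and its usual partner Slc7a9 read between 0.01 and 0.23 on a dim spot.

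Slc7a11, Slc1a4 and Slc7a7 are shown with the bases around a start site because these promoters hold the C/EBP-ATF response element searched for, TGATGNAA. The sequences are from RefSeq (GRCm38.p6), 100 bases before to 10 bases after the start, in the direction of transcription. All 3 genes are on the minus strand, Slc7a11 at chr3:50443604-50443713, Slc1a4 at chr11:20332704-20332813 and Slc7a7 at chr14:54417935-54418044. Capitals mark the motif on either strand.
Slc7a11: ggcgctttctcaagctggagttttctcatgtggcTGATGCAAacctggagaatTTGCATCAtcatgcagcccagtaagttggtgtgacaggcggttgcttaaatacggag
Slc1a4: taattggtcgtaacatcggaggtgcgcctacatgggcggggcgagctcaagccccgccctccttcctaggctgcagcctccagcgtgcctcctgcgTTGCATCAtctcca
Slc7a7: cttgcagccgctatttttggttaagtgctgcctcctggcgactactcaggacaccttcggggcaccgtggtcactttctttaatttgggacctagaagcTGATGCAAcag

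The Slc7a11 window held the motif in both directions, with first bases 66 and 47 bases before the start, the Slc1a4 window held it 4 bases before the start, and the Slc7a7 window held it 1 base before the start. Of the 56 names, 38 had promoters in the RefSeq table. Slc6a2, Slc7a5 and Slc1a5 had none there and were not searched. Of the 38, 3 (7.89%) held TGATGNAA in the 300 bases from 250 before to 50 after a start: Slc7a11, Slc1a4 and Slc7a7. Of all 27025 genes in the table, 4.51% held it. The antioxidant response element core TGACNNNGC was in 9 of the 38 (23.7%), beside 3781 of the 27025 genes in the table. The E-box CACGTG was in 8 of the 38 (21.1%), beside 8.09%. A gene counted if any of its promoters held the motif, and the 38 genes had 59 promoters. By promoter, the shares were 6.78% for TGATGNAA (3.97% of all promoters), 18.6% for TGACNNNGC (12.4%) and 13.6% for CACGTG (7.15%). Both strands were searched, each motif was counted on its own, and a promoter could hold more than 1 motif. These are matches of letters and not sites shown to be bound. Among the 3 genes with TGATGNAA, the log2 fold changes were -0.59 for Slc7a11, -0.64 for Slc1a4 and -0.04 for Slc7a7, none of which passed the test.

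Slc1 carriers move glutamate or small neutral amino acids. Of 7 names, 6 were detected and none passed the test (limma; 1 at an unadjusted p under 0.05). Slc1a5, the glutamine exchanger ASCT2, read -0.62 and -0.05 on the vector arrays and -0.08 and 0.05 on the miR-23b/27b/24 arrays. Vector replicate 1 was the low array, the other 3 were close together, and the groups overlapped. For Slc1a5 the log2 fold change was 0.32 ± 0.22 (SE, n = 2; 95% interval -0.25 to 0.90; limma adjusted p = 0.413). It was 0.04 without vector replicate 1 and 0.61 without vector replicate 2 (limma adjusted p = 0.0582).
Slc1a4, the neutral exchanger ASCT1, read -0.18 and 0.49 in vector cells and -0.68 and -0.28 in miR-23b/27b/24 cells. The groups did not overlap, and the log2 fold change was -0.64 ± 0.28 (limma adjusted p = 0.222). Without vector replicate 1, the lower of the vector arrays, it was -0.97 and passed the test (limma adjusted p = 0.0335), and without vector replicate 2 it was -0.30 (limma adjusted p = 0.413). Slc1a2, the glial glutamate transporter, read 0.00 and 0.45 in vector cells and -0.26 and -0.29 in miR-23b/27b/24 cells, on a dim spot (-0.50 ± 0.19; limma adjusted p = 0.167). Without vector replicate 1 its value was -0.73 and passed (limma adjusted p = 0.0237), and without vector replicate 2 it was -0.28 (limma adjusted p = 0.256). The other detected probe of Slc1a2 gave -0.16. Slc1a1, the glutamate carrier EAAC1, was also dim, with a log2 fold change of -0.16 ± 0.14. Slc1a6 was far below the reference on all arrays, between -2.97 and -2.83, and its log2 fold change of -0.01 had a 95% interval of -0.34 to 0.31. Slc1a7 entered through the vector arrays alone and was not well above background on either miR-23b/27b/24 array. Its ratios overlapped between the groups, and its log2 fold change was -0.07 (95% interval -0.47 to 0.32).

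Among the cationic carriers, which bring in arginine and lysine, 4 of 5 names were detected and none passed the test (limma; 1 at an unadjusted p under 0.05). Slc7a1, the main arginine carrier of most cells, read 0.02, 0.09, 0.09 and 0.09 on the 4 arrays, with a log2 fold change of 0.04 ± 0.12. Slc7a3, another arginine carrier, was below the reference at -2.59 and -2.38 in vector cells and -2.20 and -2.27 in miR-23b/27b/24 cells (0.24 ± 0.14; limma adjusted p = 0.320). Slc7a4, a relative with no settled transport activity, had the lowest fold change of the 43. It read 1.42 and 0.82 on the vector arrays and 0.12 and 0.28 on the miR-23b/27b/24 arrays. Both vector arrays were above both miR-23b/27b/24 arrays, with a wide gap between the vector arrays. The log2 fold change of Slc7a4 was -0.92 ± 0.23 (SE, n = 2; 95% interval -1.53 to -0.32), and it missed the threshold (limma adjusted p = 0.0772). Without vector replicate 1 it was -0.62 and without vector replicate 2 it was -1.23, both past the threshold (limma adjusted p = 0.0442 and 0.012). With every local background as measured it was -0.17 (limma adjusted p = 0.578), and with the scanner software's log ratio it was -1.46 (limma adjusted p = 0.0897).

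Slc38 carriers take up glutamine, alanine and other neutral amino acids with sodium. Of 5 names, 4 were detected. None passed the test by its brightest probe (limma; 2 at an unadjusted p under 0.05), and 3 of the 4 were above 0. Slc38a2, the carrier SNAT2, which cells starved of amino acids are known to make more of, was measured by 4 probes, each well above background on all arrays. The brightest probe, at chr15:96689459-96689518 (mm7), read -0.72 and -0.20 in vector cells and 0.14 and 0.30 in miR-23b/27b/24 cells. The groups did not overlap, and the log2 fold change was 0.68 ± 0.21 (SE, n = 2; 95% interval 0.13 to 1.23; limma adjusted p = 0.120). With vector replicate 1 left out the value was 0.41 (limma adjusted p = 0.116). Without vector replicate 2 it was 0.94, past the threshold (limma adjusted p = 0.0229), and with the mean of all probes it was 0.96 (limma adjusted p = 0.0165).

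The probes of Slc38a2 differed in size of change but not in sign. They are given here in the order in which they lie along the gene, which is on the minus strand, from the 3′ side to the 5′ side, with p-values adjusted over 30075 single probes, of which 9.85% were called. The probe nearest the 3′ side is the brightest one above, with 0.68 (limma adjusted p = 0.111 among probes). The next probe, at chr15:96691104-96691163, read 1.26 and 1.42 in vector cells and 1.51 and 1.76 in miR-23b/27b/24 cells, a difference of 0.30 (limma adjusted p = 0.276). The Slc38a2 probe at chr15:96698390-96698449 read -0.45 and -0.70 in vector cells and 0.90 and 0.57 in miR-23b/27b/24 cells. Its difference was 1.31 and passed the test (limma adjusted p = 0.0195). The Slc38a2 probe nearest the 5′ side, at chr15:96699481-96699540, read -1.70 and -1.81 in vector cells and 0.04 and -0.44 in miR-23b/27b/24 cells. Its difference was 1.55 and also passed (limma adjusted p = 0.0165). The probes that passed are thus those on the 5′ side, and they are dimmer than the ones on the 3′ side. Of the 67 detected carrier probes, 3 were called: these probes of Slc38a2 and the probe of Slc6a2. Whether the probes report different transcripts was not tested.

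**Figure D3:**
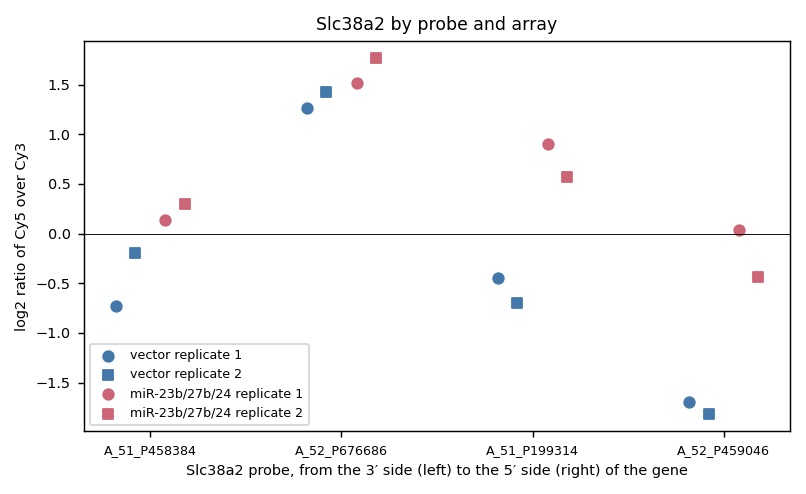
Log2 ratio of cells over reference on each of the 4 arrays for the 4 Slc38a2 probes, in order from the 3′ side to the 5′ side of the gene. The miR-23b/27b/24 arrays are above the vector arrays for every probe, by 0.68, 0.30, 1.31 and 1.55 from left to right.

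Slc38a3, the glutamine carrier SNAT3 known from liver and kidney, read 0.05 and 0.18 in vector cells and 0.56 and 0.64 in miR-23b/27b/24 cells. The replicates were close and the groups did not overlap, yet the log2 fold change of 0.49 ± 0.13 missed the threshold (limma adjusted p = 0.0813). Slc38a1, the carrier SNAT1, was above the reference at 0.60, 1.15, 0.81 and 0.93 on the 4 arrays, with a log2 fold change of -0.01 ± 0.22. Its 6 detected probes gave between -0.09 and 0.30. Slc38a4, a carrier known from liver, had a log2 fold change of 0.10 ± 0.12. Of the 15 carrier names with more than 1 detected probe, 11 had all detected probes on the same side of 0.

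Slc36 carriers move small amino acids with protons, and Slc36a1 and Slc36a4 are known from lysosomes and growth signalling. All 4 names were detected, all 4 were below 0 and none passed the test (limma; 1 at an unadjusted p under 0.05). Slc36a2 and Slc36a4 entered through the vector arrays alone, which favours values below 0. The shared direction is therefore not read as a result. Slc36a4 read -0.19 and -0.54 on the vector arrays and -0.97 and -0.97 on the miR-23b/27b/24 arrays. It entered through the vector arrays alone and was not well above background on miR-23b/27b/24 replicate 1. Its background-subtracted Cy5 signal was 88.1 and 64.7 in vector cells and 22.5 and 29.3 in miR-23b/27b/24 cells. The setting that required a signal well above background on all 4 arrays left Slc36a4 out. The log2 fold change of Slc36a4 was -0.60 ± 0.16 (SE, n = 2; 95% interval -1.02 to -0.18; limma adjusted p = 0.0876). With the scanner software's log ratio, which adds no offset, Slc36a4 was at -1.71 and passed (limma adjusted p = 0.0169). Its signal in miR-23b/27b/24 cells lay near background, so the size of that ratio is poorly set. The values deposited by the authors derive from that log ratio, so the same value of Slc36a4 there is not a separate result. By the main processing, Slc36a4 was at -0.78 without vector replicate 2 and at -0.43 without vector replicate 1. Its other detected probe gave -0.45 by the main processing. Slc36a1 read 0.30, 0.40, 0.29 and 0.07 on the 4 arrays, with a log2 fold change of -0.17 ± 0.14. Slc36a2 entered through the vector arrays alone and was not well above background on either miR-23b/27b/24 array, with a log2 fold change of -0.12 (95% interval -0.42 to 0.19). Of the Slc43 carriers, which let neutral amino acids pass without sodium, Slc43a2 (-0.14) and Slc43a3 (-0.18) did not pass the test. Slc43a3, which is known to carry purine bases, was below the reference on all arrays, between -2.38 and -2.09.

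Slc7a6os carries the name pattern but is no carrier: it is the neighbour of Slc7a6 on the opposite strand. It read -0.17 and -0.42 in vector cells and -0.95 and -0.73 in miR-23b/27b/24 cells, without overlap (-0.54 ± 0.16; limma adjusted p = 0.103). Slc7a6 itself gave 0.25. Of the 13 names whose brightest probe was not detected, 10 were well above background on no array, among them the heavy chain Slc3a1, the serotonin transporter Slc6a4, the arginine carrier Slc7a2 and the light chains Slc7a10 and Slc7a13. At their brightest probe, Slc1a3 and Slc38a5 were well above background on 1 array and Slc43a1 on 2 arrays, 1 in each group. Another probe of Slc1a3, a glutamate carrier, was detected and gave -0.25 (limma adjusted p = 0.268 among probes).

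Several carriers differed more between replicates than between groups. The array of replicate 2 was above that of replicate 1 by 0.98 in vector cells and 0.83 in miR-23b/27b/24 cells for Slc7a5. The gaps were 0.86 and 0.87 for Slc3a2, and 0.87 and 0.83 for Slc6a9. These 3 of the 43 (6.98%) had such a gap of over 0.5 in both groups, as did 62 of the 20647 genes tested (0.3%). In the other direction, with replicate 1 higher, there were 145 genes (0.702%) and no carrier. At any size, replicate 1 was higher in both groups for 25.9% of all genes and 16.3% of the carriers. Replicate 2 was also the higher array in both groups for Slc1a4 (0.67 and 0.40), Slc1a5 (0.57 and 0.12) and Slc38a2 (0.53 and 0.16). Of 27 detected genes of the amino acid response, 10 (37%) had a gap of over 0.5 in both groups, and 24 (88.9%) were higher in replicate 2 of both groups, beside 34.9% of the carriers and 23.9% of all genes. Trib3, a target of Atf4, is an example: it read 0.09 and 1.74 in vector cells and -0.53 and 0.59 in miR-23b/27b/24 cells. The replicate numbers are those of the labels, which do not say what replicates of the same number share, and the cause of the gaps was not tested. For these genes the replicate spread sets a wide interval on the difference between the groups.

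**Figure D4:**
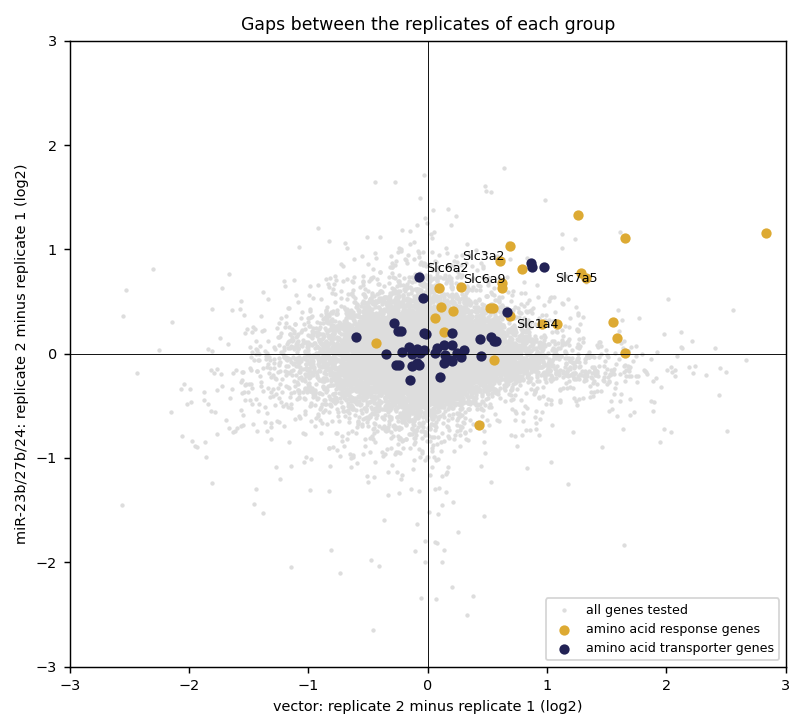
Gap between the replicates (replicate 2 minus replicate 1, log2) in vector cells (x axis) and in miR-23b/27b/24 cells (y axis) for all genes tested, the amino acid response genes and the carriers; 4 genes lie outside the plotted range. Slc7a5, Slc3a2 and Slc6a9 lie at 0.83 or more on both axes, in the quadrant that holds 24 of the 27 response genes.

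Genes around the carriers were counted in 4 lists. Under their names in the files, 27 of 28 listed response genes, 17 of 20 tRNA synthetases and 17 of 34 sensing genes were found. In the amino acid response, made of Atf4, its regulators and targets, 2 of 27 detected genes fell (7.41%, beside 9.52% of all genes) and none rose. The median log2 fold change was -0.48, beside -0.03 for all genes, and 21 of the 27 were below 0. Ddit4, which restrains mTORC1, read 0.47 and 0.90 in vector cells and -1.52 and -2.21 in miR-23b/27b/24 cells (-2.55 ± 0.28; limma adjusted p = 0.0139). Stc2, a secreted glycoprotein, read -1.48 and -0.93 in vector cells and -2.26 and -2.32 in miR-23b/27b/24 cells (-1.08 ± 0.21; limma adjusted p = 0.0474). When an array was left out, the count of response genes called moved in the same direction as the count of all genes called. It was higher without a vector array and lower without a miR-23b/27b/24 array. These counts are therefore not read as a result about the list. Asns, the asparagine synthetase, read 0.03 and 0.72 against -1.26 and -0.22 (limma adjusted p = 0.170), without overlap. Atf4 read -1.17 and -0.21 in vector cells and -0.28 and 0.01 in miR-23b/27b/24 cells, a difference of 0.55 in the other direction (limma adjusted p = 0.370).

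Of 17 detected tRNA synthetases, which load amino acids onto their tRNAs, none passed the test (limma; 4 at an unadjusted p under 0.05), and their median was -0.22. The lowest was Iars, which loads isoleucine, at -1.06 (limma adjusted p = 0.0816). With vector replicate 1 left out, 6 of the 17 were called, and 2 of the sensing genes described next, beside 22.4% of all genes. Of 16 detected genes of amino acid sensing at the lysosome and mTORC1, none passed (limma; 3 at an unadjusted p under 0.05), with a median of -0.02. Mtor and Rptor are among the sensing genes found only by RefSeq symbol and are not in these counts. With RefSeq symbols no sensing gene was called either. Of 16 detected carriers of other families, such as the mitochondrial aspartate-glutamate carriers, none passed either (limma; 3 at an unadjusted p under 0.05), with a median of -0.04.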

How the data were processed

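Total RNA of 4 samples was hybridised with reference RNA, without dye swap, on arrays that shared 1 slide and 1 scan, which left no block to fit for either. The scanner software, Agilent Feature Extraction 9.5.3.1 per the submitters' processing notes, wrote for every spot the mean intensity and the median intensity of its surroundings, processed signals, and the log10 ratio of Cy5 over Cy3, per the file headers. The deposited table holds log2 ratios that, set against the scanner values, are this log ratio after the median of the 4 arrays was taken off each probe (87.3% to 87.8% of values within 0.001; column medians -0.0172 to 0.0221), so it keeps the direction of Cy5 over Cy3 and holds no level against the reference.

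Here, intensities were corrected by normexp (offset 50), with outlying local backgrounds replaced by the array's median background, as in an earlier analysis of these data. Ratios were then normalised by loess in limma 3.58.1 (R 4.3.3), with control and outlier spots at weight 0. Spots of a probe were averaged, and the probe brightest in the mean of both channels stood for a gene. Genes are named as in the files, except where a RefSeq symbol is given. A gene counts as detected where the software marks its Cy5 signal as well above background on every array of a group. The limma fit (lmFit, eBayes; 2 residual and 2.83 prior degrees of freedom; two-sided) was adjusted by Benjamini-Hochberg over all detected genes, threshold 0.05. Its p-values measure only the spread between these transfection replicates. The number of arrays limits the precision. The fit was run on simulated data with independent errors at the spread of these arrays. The simulation held no replicate gaps shared between genes, so it is no check on their effect.

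Members and lists were chosen with earlier results of these data known. Named in full were members that passed the test or reached 1 in log2, and Slc7a5, Slc3a2, Slc7a11, Slc1a5 and Slc38a2 whatever their values. From each other list, up to 4 called genes with the largest change were named; Asns, Atf4, Trib3, Iars and further members were singled out after their values were seen. Probe coordinates are those of the array files (mm7). Promoters and miRNAs are from RefSeq (GRCm38.p6), matched by symbol. The alternatives covered background, normalisation, source of values, filter, probe choice, names, moderation, replicate block and leaving out each array.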

Additional observations from a re-analysis of the deposited data

How the results depend on the processing

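The call of Slc6a2 held in 17 of the 18 alternative settings, with log2 fold changes from 2.31 to 4.14; it was lost with every local background as measured (2.31, limma adjusted p = 0.0666). Members called numbered 0 in that setting and 2 with the Feature Extraction signals and loess, the Feature Extraction log ratio, the authors' deposited values and the mean of all probes, where Slc36a4 (in the first 3) or Slc38a2 joined Slc6a2. Leaving out each array gave 1 to 4 members: 4 without vector replicate 1 (Slc6a2, Slc1a4, Slc1a2 and Slc7a4) and 4 without vector replicate 2 (Slc6a2, Slc38a2, Slc36a4 and Slc7a4). The members' median was -0.14 with the Feature Extraction log ratio and with the authors' values, which derive from that ratio. All genes called numbered 1965, but 650 with backgrounds as measured, 1291 with median centring, and 226 to 4620 when an array was left out (226 and 243 without a miR-23b/27b/24 array, 2760 and 4620 without a vector array; a lone array is taken to vary as the others do). Amino acid response genes called numbered 1 with median centring, with Cy5 alone and with no filter on dim probes, and 0 to 7 when an array was left out; tRNA synthetases called reached 6 and sensing genes 2 without vector replicate 1, and both were 0 at the lowest. When an array was left out, Slc7a5 lay between -0.68 and 0.29 (-0.20 with all arrays) and Slc3a2 between -0.77 and 0.09 (-0.34); Slc7a5 was at 0.22 without miR-23b/27b/24 replicate 1. The cause of these differences was not tested.

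With the replicate number as a block, 1810 genes were called, which is 8.77% of all genes tested. Called among the lists were 1 of 43 members, 7 of 27 amino acid response genes and 1 of 17 tRNA synthetases. Across genes, the replicate gaps of the groups correlated at 0.0471 over all genes, 0.504 over the carriers and 0.355 over the amino acid response; with 2 numbers and no shared origin in the labels, the numbers were not taken to pair the samples. Spots under about 100 in net Cy5 signal limit what can be seen of 15 members.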

Other observations

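The array carries 9 gene names outside the rule whose RefSeq symbol fits the families, 5 of them with a detected probe. With RefSeq symbols throughout, 48 members were tested and Slc6a2 remained the 1 called. Slc38a9, a lysosomal carrier known as an arginine sensor of mTORC1, was at -0.65 by its brightest probe (limma adjusted p = 0.0566), with -0.29 and -0.06 by its other detected probes, and Slc38a10 was at 0.54 (limma adjusted p = 0.0667). Slc38a7, a lysosomal glutamine carrier, was at -0.68 (limma adjusted p = 0.166), while Slc38a8 was at -0.05 and Slc38a11 at -0.08.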
